A study of Mus musculus with 6 samples.

Results

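The genes described here are 2 neurexins, Nrxn2 and Nrxn3, and 3 neuroligins, Nlgn1, Nlgn2 and Nlgn3. They were found in a table of log2 expression values by taking the probe rows that the platform annotation assigns to one of these genes alone and keeping, for each gene, the row with the highest mean over the 6 arrays. That gave 5 genes, from 6 rows, out of 22180 genes that have such a row. Other members of both families were not analysed here. The RNA came from male C57BL/6J mice, an inbred laboratory strain. Pups received ethanol, 2.5 g/kg in 0.15 M NaCl, or saline, under the skin. There were 2 injections on each of postnatal days 4 and 7. Each group had 3 arrays and every array a pool of RNA from 3 mice, so that 18 mice were used and the spread between arrays is a spread between pools. The tissue is labelled whole hippocampus. The age is given as 21 days in one place and the day of death as postnatal day 70 in another.

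Neurexins are adhesion proteins of the presynaptic membrane, and neuroligins are their best known partners across the synaptic cleft. Inside the axon terminal neurexins bind the scaffold Cask and its companions, while in the postsynaptic cell neuroligins bind PSD-95 at excitatory synapses or gephyrin at inhibitory ones. Neuroligin 1 is found mainly at excitatory synapses, neuroligin 2 at inhibitory synapses, and neuroligin 3 at both. Each neurexin gene makes a long alpha form and a short beta form from separate start sites, and both are spliced in many ways. Cells of a bulk sample are measured together, so fewer cells of a type and less RNA per cell cannot be told apart in any value below.

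The median value over the 41345 rows lay between 6.55 and 6.66 on the 6 arrays. The markers of the labelled tissue had median levels of 6.80 over 7 dentate gyrus granule cell genes, 7.63 over 6 CA1 pyramidal cell genes and 7.31 over 7 CA3 and CA2 genes. Among them Prox1, the transcription factor of dentate granule cells, was the brightest of the dentate genes, at 8.18. Trpc6, Plk5 and Stxbp6 stood at 6.80, 7.56 and 7.68. Tdo2, Dsp and C1ql2 stood at 5.6, 6.43 and 6.47, below the medians of the arrays. The median level was 10.07 over 8 cerebellar granule cell genes and 10.85 over 5 Purkinje cell genes, with the granule cell gene Gabra6, which encodes a subunit of GABA-A receptors, at 12.17. Rows differ in how strongly their probes bind, so these levels do not rank transcripts, but signal for genes of cerebellar neurons was present on every array. To which region the neurexin and neuroligin signal belongs was not tested.

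Neither neurexin passed the test between ethanol and saline, and for both the arrays of the groups overlapped. Nrxn2 lies on chromosome 19 from 6418756 to 6533217 of mouse build GRCm38. Its log2 values were 10.05, 9.96 and 10.09 on ethanol arrays 1 to 3 and 10.05, 9.85 and 9.91 on saline arrays 1 to 3. Saline array 1 lay among the ethanol arrays, so the groups overlapped, and saline arrays 2 and 3 were below all others. The ethanol arrays had a mean of 10.03 ± 0.07 and the saline arrays one of 9.94 ± 0.10 (SD, n = 3 each). The difference, ethanol minus saline, was 0.10 ± 0.09 (log2, SE), with a 95% interval from -0.11 to 0.30 and an adjusted p of 0.878 in limma. As a ratio this is 1.07-fold, with an interval from 0.928 to 1.23.

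Nrxn2 had another, dimmer row. Its values were 8.56, 8.46 and 8.63 in ethanol and 8.34, 8.47 and 8.77 in saline. Here saline array 1 was the lowest of the 6 and saline array 3 the highest, the opposite of their order on the brighter row. The difference on the dimmer row was 0.02 ± 0.12 (log2, SE; adjusted p = 0.976 in limma). Which transcripts each row covers is not given in the sources used here.

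Nrxn3 lies on chromosome 12 from 88722701 to 90334935 and is the longest of the 5 genes, at 1612235 bases. Its values were 11.19, 11.15 and 11.29 in ethanol and 11.25, 11.08 and 11.14 in saline. Ethanol array 3 was the highest and saline array 2 the lowest, and the other arrays of both groups were interleaved. The group means were 11.21 ± 0.07 and 11.16 ± 0.08 (SD, n = 3 each). The difference was 0.05 ± 0.08 (log2, SE), with a 95% interval from -0.14 to 0.25 and an adjusted p of 0.928 in limma.

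Promoter windows are shown for Nrxn3 and Nlgn2, because the values of both moved together over the arrays, as described below, and because Nrxn3 has several start sites that 1 value per array does not separate. The windows are those of RefSeq on build GRCm38.p6 and run from 250 bases before to 50 bases after a start site, 5′ to 3′ along the gene. Of the 5 genes 3 had such windows, 6 in all. Capitals mark the GC box, GGGCGG on either strand, which binds factors of the Sp family.

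Nrxn3, chr12:88794254-88794553, plus strand: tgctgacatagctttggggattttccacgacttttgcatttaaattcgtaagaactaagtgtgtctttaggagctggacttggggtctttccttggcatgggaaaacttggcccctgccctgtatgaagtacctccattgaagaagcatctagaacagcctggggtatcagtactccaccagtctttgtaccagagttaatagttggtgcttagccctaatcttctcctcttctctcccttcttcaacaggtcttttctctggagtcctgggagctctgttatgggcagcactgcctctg
Nrxn3, chr12:88953140-88953439, plus strand: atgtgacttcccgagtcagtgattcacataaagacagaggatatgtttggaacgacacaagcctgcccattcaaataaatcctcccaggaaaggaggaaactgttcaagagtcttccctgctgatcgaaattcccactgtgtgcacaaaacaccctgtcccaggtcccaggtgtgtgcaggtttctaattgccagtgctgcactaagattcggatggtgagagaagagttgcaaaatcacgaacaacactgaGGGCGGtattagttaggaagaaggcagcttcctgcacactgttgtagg
Nrxn3, chr12:89812233-89812532, plus strand: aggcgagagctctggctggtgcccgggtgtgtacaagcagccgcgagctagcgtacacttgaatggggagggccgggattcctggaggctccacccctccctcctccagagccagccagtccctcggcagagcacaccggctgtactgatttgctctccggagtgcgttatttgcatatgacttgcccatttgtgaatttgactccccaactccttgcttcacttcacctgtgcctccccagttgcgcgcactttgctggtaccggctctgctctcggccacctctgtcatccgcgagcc
Nlgn2, chr11:69837735-69838034, minus strand: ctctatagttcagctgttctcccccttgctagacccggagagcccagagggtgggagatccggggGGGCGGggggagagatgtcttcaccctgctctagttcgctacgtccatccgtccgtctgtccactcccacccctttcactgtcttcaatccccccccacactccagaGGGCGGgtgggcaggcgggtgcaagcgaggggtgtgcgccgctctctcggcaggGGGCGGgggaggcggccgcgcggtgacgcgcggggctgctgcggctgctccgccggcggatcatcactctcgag

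The 3 start sites of Nrxn3 lie 71.8, 231 and 1090 kb from the upstream end of the gene. The window farthest downstream had 16 CG dinucleotides, against 2 and 6 in the other windows of Nrxn3 and a median of 7 over 32851 windows. The Nlgn2 window had 26, more than 83.1% of all windows, and a GC content of 68.7%. It held 3 GC boxes. Of the Nrxn3 windows the middle one held 1 and the others none, where 35.7% of all windows hold at least 1. A TATA box (TATAAA), a cyclic AMP response element (TGACGTCA) and an E-box (CACGTG), each searched on both strands, were not found in these windows. They occur in 13.6%, 1.79% and 7.15% of all windows. A match in letters is a description and was not set against any measure of binding.

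None of the neuroligins passed the test either, and among the 5 genes Nlgn3 had the largest point estimate. Nlgn1, the neuroligin of excitatory synapses, lies on chromosome 3 from 25421808 to 26332866. Its values were 8.24, 8.31 and 8.37 in ethanol and 8.33, 8.17 and 8.38 in saline. The groups overlapped fully: the highest and the lowest array were both saline. The means were 8.31 ± 0.07 and 8.29 ± 0.11 (SD, n = 3 each). The difference was 0.01 ± 0.09 (log2, SE), with a 95% interval from -0.20 to 0.22 and an adjusted p of 0.988 in limma.

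Nlgn2, the neuroligin of inhibitory synapses, lies on chromosome 11 from 69823123 to 69837784. Its values were 9.56, 9.54 and 9.66 in ethanol and 9.63, 9.54 and 9.47 in saline. Ethanol array 3 and saline array 1 were the highest, and saline array 3 was the lowest. The means were 9.59 ± 0.06 and 9.55 ± 0.08 (SD, n = 3 each). The difference was 0.04 ± 0.08 (log2, SE), with a 95% interval from -0.15 to 0.24 and an adjusted p of 0.938 in limma.

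Nlgn3, which is present at both kinds of synapse and is also known from glial cells, lies on chromosome X from 101299179 to 101321350. Its values were 9.75, 9.83 and 9.72 in ethanol and 9.73, 9.57 and 9.60 in saline. Saline array 1 lay above ethanol array 3, so the groups overlapped by 1 array, and saline arrays 2 and 3 were below all others. The means were 9.77 ± 0.06 and 9.64 ± 0.09 (SD, n = 3 each). The difference was 0.13 ± 0.08 (log2, SE), a ratio of 1.10, with a 95% interval from 0.959 to 1.25 for the ratio. Its unadjusted p was 0.147 and its adjusted p 0.857 in limma.

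**Figure D1:**
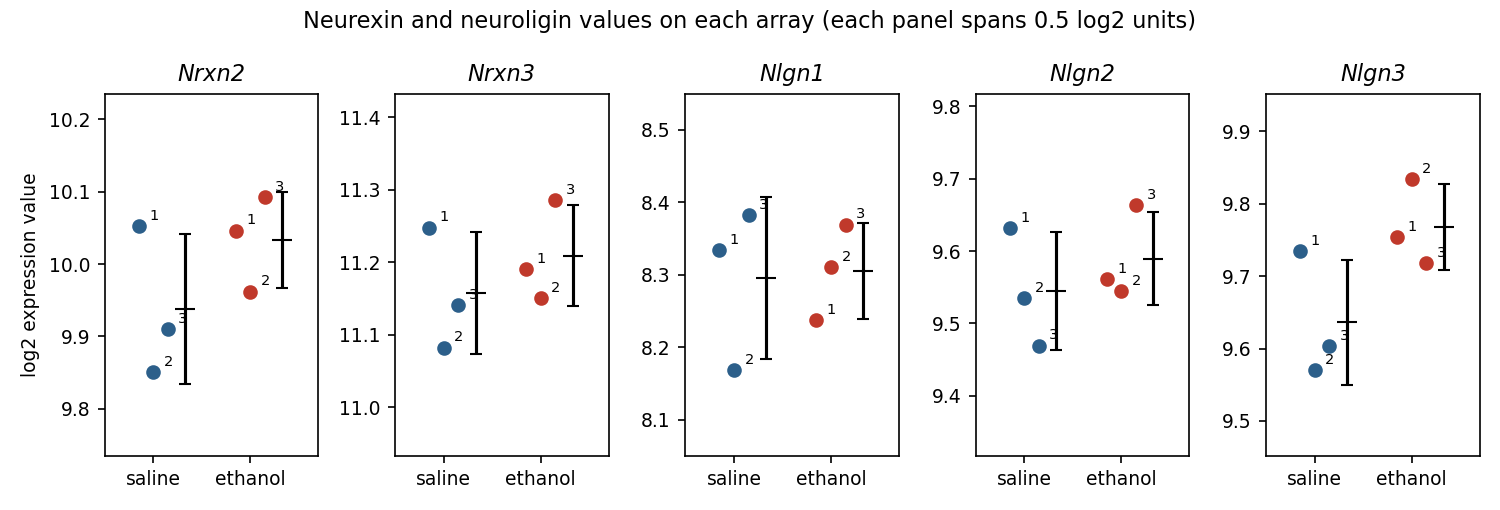
Log2 expression value of each gene on the 6 arrays. Each point is 1 array, numbered within its group, and the black mark and bar are the group mean ± SD (n = 3). Every panel spans the same 0.5 log2 units. In each panel at least 1 saline array lies within or above the range of the ethanol arrays, and saline array 2 is the lowest point for 4 of the 5 genes.

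In all, 0 of the 5 genes passed an adjusted p of 0.05 in limma, where 0 of 41345 rows (0%) did. None of the 5 had an unadjusted p under 0.05, against 3.18% of all genes and 5.54% of all rows. None had groups that did not overlap, against 10.5% of all genes and 11.1% of all rows. The intervals of the ratios reach from 0.872 for Nlgn1 at the low end to 1.25 for Nlgn3 at the high end. The arrays within a group were close to each other on the brightest row of each of these genes. The within-group SD of these rows was 0.07 to 0.09, where the median row of the brightest 2 of 10 equal bins had 0.10 to 0.11. The dimmer row of Nrxn2 had 0.16.

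As deposited, all 5 differences were above 0, but with quantile normalization or cyclic loess only those of Nrxn2 and Nlgn3 were, as the plot of differences under 4 scalings shows. Bright rows in general had differences above 0 as deposited. The median difference was 0.08 over the 4135 rows of the brightest bin, which holds Nrxn2, Nrxn3, Nlgn2 and Nlgn3, and 0.06 over the next bin, which holds Nlgn1. In the brightest bin it was 0.01 under quantile normalization and 0.00 after cyclic loess, and 0.05 without saline array 2, the lowest array for these rows. Set against the medians as deposited, Nlgn3 stood 0.05 above, Nrxn2 0.02 above, and Nrxn3, Nlgn2 and Nlgn1 at -0.03, -0.03 and -0.04. Under quantile normalization the difference of Nlgn3 was 0.07 ± 0.07 and under cyclic loess 0.06 ± 0.07 (log2, SE), smaller than as deposited.

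**Figure D2:**
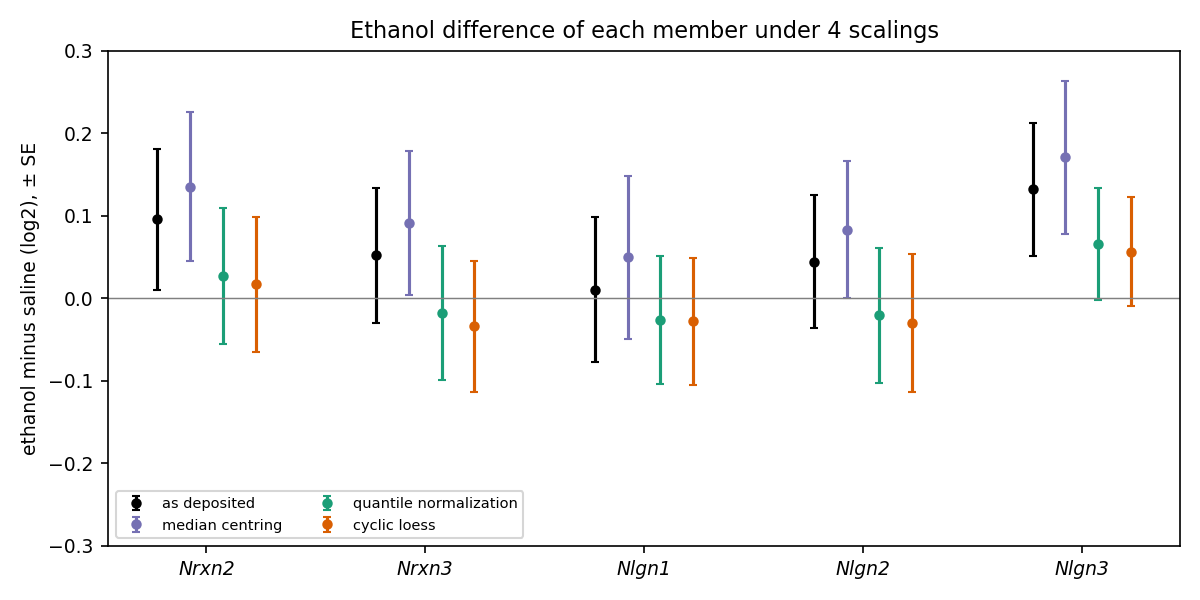
Difference between ethanol and saline on the log2 scale for each gene, as deposited and under 3 other scalings between arrays, with bars of ± 1 SE (3 arrays a group). Nrxn3, Nlgn1 and Nlgn2 fall below 0 under quantile normalization and cyclic loess, and the point estimate of Nlgn3 stays above 0 in all 4.

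The proteins of Nlgn1 and Nlgn2 are found mainly at excitatory and at inhibitory synapses. The difference between the log2 values of the 2 transcripts was also taken within each array, a comparison chosen after the values were seen. It is a difference in RNA and does not measure synapses of either kind. Nlgn1 minus Nlgn2 was -1.32, -1.24 and -1.29 in ethanol and -1.30, -1.37 and -1.09 in saline. Saline arrays 2 and 3 were at the extremes, with all ethanol arrays between them. The means were -1.28 ± 0.05 and -1.25 ± 0.15 (SD, n = 3 each), and an exact two-sided permutation test gave p = 0.9, where the smallest p that 3 arrays against 3 allow is 0.1. The difference of the means was -0.03 as deposited and 0.00 after cyclic loess. The sizes of these values depend on the probes and say nothing of which transcript is more abundant.

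The arrays differed from each other in a pattern that several of the genes shared. The brighter row of Nrxn2 and the row of Nrxn3 put all 6 arrays in the same order, from ethanol array 3, the highest, through saline array 1, ethanol arrays 1 and 2 and saline array 3 to saline array 2. Pearson's r between them was 0.953 and Spearman's rho 1 over the 6 arrays. Without saline arrays 2 and 3, those farthest from the median of Nrxn2, r was 0.920 over the other 4. The dimmer row of Nrxn2 did not share the pattern, with r = -0.07 to Nrxn3 and -0.12 to the brighter row. For the brighter row, after each group's mean was taken out, r with Nrxn3 was 0.966, and it was 0.892 under quantile normalization and 0.891 after cyclic loess. Nlgn2 varied with both, at r = 0.803 with Nrxn2 and 0.842 with Nrxn3. Among 12561 genes above the median brightness, Nrxn3 ranked 40 by likeness to Nrxn2, and Nrxn2 ranked 32 by likeness to Nrxn3. These r values rest on 6 arrays that share their scaling, and 201 of the 12561 genes (1.60%) had r above 0.9 with Nrxn2.

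Nlgn1 and Nlgn3 followed the neurexins less closely. The r of Nlgn1 was 0.446 with Nrxn2, 0.594 with Nrxn3, 0.177 with Nlgn2 and 0.234 with Nlgn3, and that of Nlgn3 was 0.630 with Nrxn2, 0.468 with Nrxn3 and 0.411 with Nlgn2. The highest array of Nlgn1 was saline array 3, where the other 4 genes stood at -0.10 to -0.04 from their own means (log2). Nlgn3 was highest on ethanol array 2, where Nrxn2, Nrxn3 and Nlgn2 stood at -0.02, -0.03 and -0.02 from their means. The pattern of Nlgn3 was common on these arrays: 6.15% of the 12561 genes had r above 0.9 with it. Over the 10 pairs of genes, r was above 0 in 10 as deposited and in 8 under quantile normalization or cyclic loess.

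**Figure D3:**
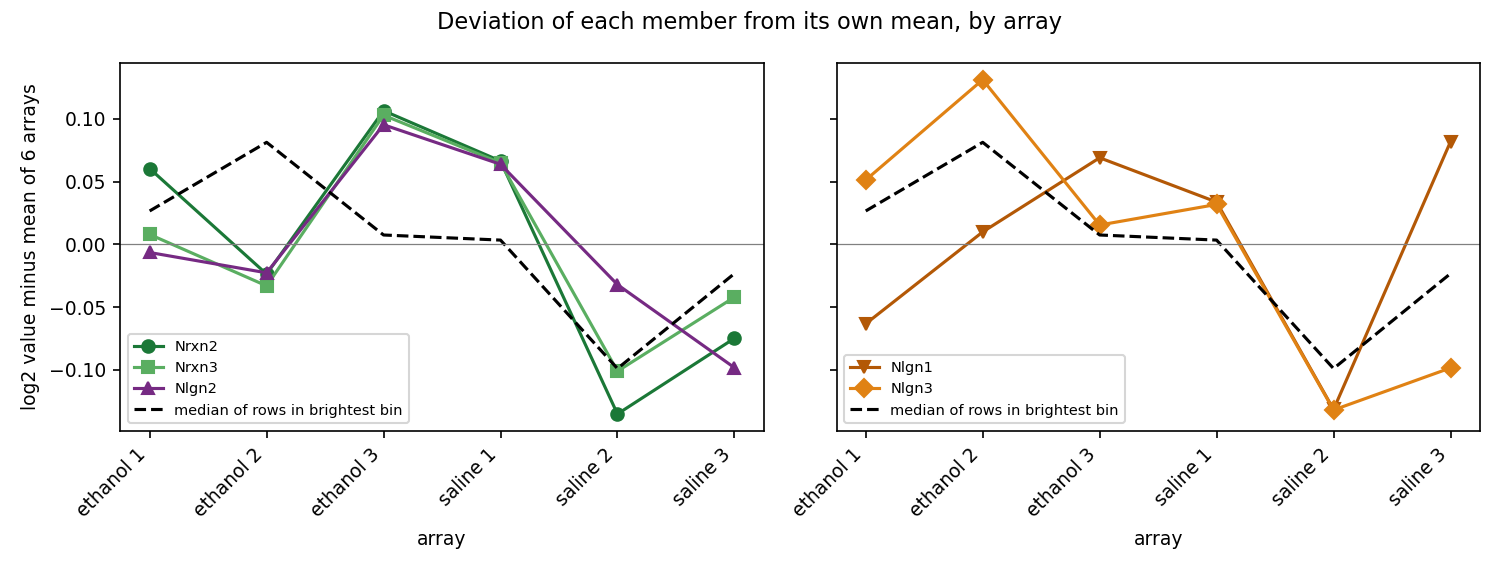
Log2 value of each gene minus its own mean over the 6 arrays, by array, with Nrxn2, Nrxn3 and Nlgn2 on the left and Nlgn1 and Nlgn3 on the right. The dashed line is the median deviation of the rows in the brightest of 10 bins. The genes on the left are highest on ethanol array 3 and follow each other more closely than the dashed line, while Nlgn3 runs along the dashed line (r = 0.945 over 6 arrays).

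Medians of several marker lists moved with Nlgn3 over the arrays, some in the same and some in the opposite direction. Its r was 0.926 with the median of 8 astrocyte genes, 0.947 with that of 8 endothelial genes, 0.893 with that of 5 Purkinje cell genes and 0.802 with that of 8 cerebellar granule cell genes. The Purkinje median was the value of Ppp1r17 on every array. For microglia, oligodendrocytes, interneurons and choroid plexus r was 0.524, 0.48, 0.416 and -0.236. With medians of the telencephalic and hippocampal lists it was -0.835 for 7 telencephalic excitatory genes and -0.799 for 6 CA1 genes. It was -0.634 for 7 dentate granule cell genes and 0.172 for 7 CA3 and CA2 genes. On every array the telencephalic median was the value of Neurod6 (mean 6.76) and the dentate median that of Trpc6 (6.80). The CA3 and CA2 median was the value of Coch on every array (mean 7.31) and the microglia median that of C1qa (7.79). The CA1 median was the midpoint of Fibcd1 and Ccn3 on every array. The r values with the telencephalic and dentate medians are thus each with 1 dim gene. None of the r values with the medians named here stands for its list. In the telencephalic and dentate lists 3 genes each had differences above 0 as deposited and 4 below. Slc17a7 was at 0.21 and Neurod6 at -0.15, Prox1 at 0.10 and Trpc6 at -0.07. The telencephalic genes Slc17a7, Neurod2 and Camk2a had levels of 10.95, 10.58 and 9.76, and Emx1, Tbr1 and Emx2 levels of 6.39, 5.74 and 5.28. From which region the signal of these genes came was not tested. With the median deviation of the brightest rows the r of Nlgn3 was 0.945. The astrocyte medians lay between 10.10 and 10.32 in ethanol and between 10.02 and 10.16 in saline. All 8 astrocyte genes had point estimates above 0 as deposited and 6 after cyclic loess, with none called in limma at an adjusted p of 0.05. An unadjusted p under 0.05 was found for 1 gene in each of the astrocyte, CA1, CA3 and CA2 and telencephalic lists, and for 3.18% of all genes. The endothelial medians were 8.05 to 8.26 and 7.92 to 8.10, with 7 of 8 genes above 0 as deposited, under quantile normalization and after cyclic loess. The Purkinje medians were 10.78 to 11.03 and 10.69 to 10.91, with 4 of 5 genes above 0 as deposited and 1 after cyclic loess. The granule cell medians were 9.99 to 10.29 and 9.95 to 10.13, with 6 of 8 genes above 0 as deposited and 4 after cyclic loess. The part of these markers in the value of Nlgn3 was not tested. With the telencephalic excitatory median, which is Neurod6 alone, r was -0.892 for Nrxn2 and -0.740 for Nrxn3. With the interneuron median it was 0.571 and 0.597. That median was the midpoint of Sst and Npy on every array and does not stand for its list. It was 9.42 on saline array 1, with Sst at 9.54 and Npy at 9.30, and between 8.40 and 8.70 on the other arrays. Values of similar size were 0.573 and 0.473 for the microglia median, which is C1qa alone, and 0.435 and 0.506 for choroid plexus. They were -0.515 and -0.472 for the dentate granule cell median, which is Trpc6 alone. The part of these markers in the values of the neurexins was not tested. Of the other marker lists, the median differences were 0.01 for microglia, 0.01 for interneurons, 0.04 for oligodendrocytes and 0.04 for choroid plexus, and under quantile normalization those of interneurons and oligodendrocytes were -0.04 and -0.02. As deposited they were -0.04 for telencephalic excitatory neurons, -0.04 for dentate granule cells, -0.04 for CA1 and -0.05 for CA3 and CA2. In the same order they were -0.002, -0.006, -0.002 and -0.012 under median centring. Quantile normalization gave -0.01, -0.03, -0.05 and -0.03, and cyclic loess -0.02, -0.05, -0.06 and -0.04.

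The known partners of neurexins and neuroligins did not pass the test either. Of 105 listed partner genes 96 were measured, and limma called 0 of them at an adjusted p of 0.05, where 0 of 22180 genes (0%) were called. None had an unadjusted p under 0.05, against 3.18% of all genes, and in 8 (8.33%) the groups did not overlap, against 10.5% of all genes. The median difference of the partners was 0.05, beside 0.02 over all genes. As deposited 74 were above 0 and 22 below, beside 57.2% of all genes above 0. With quantile normalization the split was 55 and 41, and after cyclic loess it was 48 and 48.

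On the presynaptic side, 11 genes listed as neurexin scaffolds had a median difference of 0.06 as deposited and 0.01 under quantile normalization. Cask, a kinase-like scaffold, was at 0.09 ± 0.08 (log2, SE, here and for the genes below, with 3 arrays a group). Lin7a and Lin7c, PDZ proteins in complex with Cask, were at 0.16 ± 0.09 and 0.12 ± 0.08. Lin7a was also among the genes most like Nlgn3, with r = 0.996 over the arrays. Among 10 genes of neurexin splicing and shedding the median was 0.09 as deposited and 0.02 after cyclic loess. Khdrbs3, a splicing factor that acts on neurexin transcripts, was at 0.10 ± 0.08, and the proteases Adam17 and Bace1 were at 0.19 ± 0.10 and 0.12 ± 0.07.

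Other ligands of neurexins varied more among themselves. The 16 ligand genes had 11 above 0 as deposited and 7 after cyclic loess, with differences from -0.13 to 0.25. Dag1, dystroglycan, had the largest, at 0.25 ± 0.14, with values of 9.92 ± 0.27 in saline and 10.16 ± 0.06 in ethanol (SD, n = 3 each) that overlapped. Cbln3, a cerebellin of cerebellar granule cells, was at 0.14 ± 0.07 and Cbln1, which links neurexins to the receptor GluD2, at 0.04 ± 0.09. Lrrtm2, a postsynaptic leucine-rich repeat ligand, was at 0.12 ± 0.09. Grid1, which encodes the receptor GluD1, was at 0.09 ± 0.11. Flrt3 and Flrt1, ligands of latrophilins, were at 0.12 ± 0.10 and 0.06 ± 0.07.

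On the postsynaptic side, 11 of 13 excitatory scaffold genes were above 0 as deposited and 6 after cyclic loess. Dlg4, which encodes PSD-95, was at 0.06 ± 0.08, and Shank1 and Shank2, deeper scaffolds of the same density, were at 0.24 ± 0.12 and 0.16 ± 0.10. Of 9 inhibitory scaffold genes 7 were above 0 as deposited and 3 under quantile normalization. Gphn, gephyrin, was at 0.03 ± 0.08. Igsf9b, an adhesion protein of inhibitory synapses, was at 0.10 ± 0.08, and Shisa7, an auxiliary protein of GABA-A receptors, at -0.10 ± 0.09. The excitatory and inhibitory lists had medians of 0.05 and 0.04 as deposited.

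Adhesion systems that work beside neurexins held no called gene either. The 15 genes of receptor phosphatases of the LAR type and their ligands had a median of 0.04 as deposited and 0.00 after cyclic loess, with the ligands Slitrk4 and Slitrk3 at 0.19 ± 0.10 and 0.16 ± 0.09. The 15 genes of other adhesion families had a median of 0.05 as deposited and 0.00 after cyclic loess. Cntnap1, a neurexin-like protein of the paranodal junction, was at 0.18 ± 0.09, and Cadm3, an immunoglobulin adhesion protein, at 0.13 ± 0.07. In both of these the ethanol arrays were all above the saline arrays, as they were for Cbln3 and Bace1. These genes are among the 8 of 96 partner genes (8.33%) whose groups did not overlap, against 10.5% of all genes. The adjusted p of the partner genes named here lay at or above 0.857 in limma.

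**Figure D4:**
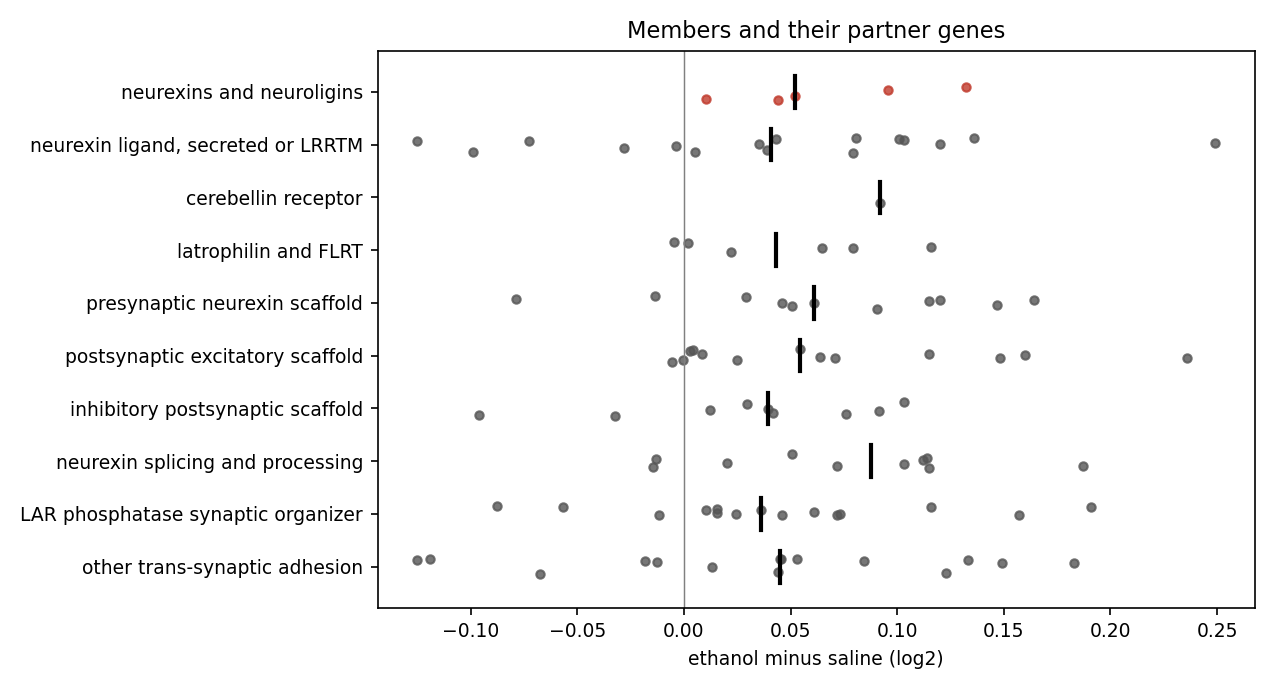
Difference between ethanol and saline on the log2 scale, as deposited, for the 5 neurexin and neuroligin genes (red) and the 96 partner genes measured (grey), by list. Each point is 1 gene and the black line the median of the list. The members lie between 0.01 and 0.13, within the range of the partners from -0.13 to 0.25.

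The genes most like each member over the 6 arrays were found among the 12561 named genes above the median brightness. For Nrxn2 they were Kirrel3, an adhesion protein (r = 0.995), Ggt7 (0.989) and Gnal, a G protein alpha subunit (0.989). For Nrxn3 they were the receptor phosphatase Ptprk (0.990), the nicotinic receptor subunit Chrnb4 (0.989) and Vav2 (0.988). For Nlgn1 they were Gripap1, which binds the AMPA receptor partner GRIP (0.996), Slc25a28, a mitochondrial iron carrier (0.994), and Gpalpp1 (0.988). For Nlgn2 they were Wasf1, a regulator of actin (0.993), Sirt5, a mitochondrial deacylase (0.992), and the semaphorin receptor Nrp2 (0.986). For Nlgn3 they were Mpp1 (0.997), Lin7a (0.996) and Lhfp (0.995). Between 67 and 772 genes had r above 0.9 with each member, so these are only the nearest of many.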

How the data were processed

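The data were 1 table of log2 expression values deposited by the authors, with 41345 probe rows and 6 arrays. The log2 scale was read from the values. How the arrays were corrected for background, summarized and normalized, which may compress differences, is not given in the sources used here. Per the submitters' processing notes the build was mm 10. Per the labels' protocols, 200 ng of RNA was labelled per array. The platform annotation names 1 gene for 23521 rows, several for 1814 and none for 16010.

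In R 4.3.3, limma 3.58.1 was fitted to all rows (lmFit, then eBayes, two-sided, no covariate or filter), and Benjamini-Hochberg adjustment covered every row (threshold 0.05). Intervals and SEs use 4 residual and 2.94 prior degrees of freedom. The script was checked on simulated data. The number of arrays limits the precision. The members, the partner and marker lists and the tests were chosen with earlier results of these data known. A gene's brightest row was used. Cbln3 and Nectin3 are in both a partner and a marker list. Named were all members, the 2 partners with the smallest p in each list, 7 partners picked for their roles, and the 3 genes most like each member by Pearson's r, leaving out predicted genes, small RNA genes and pseudogenes.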

Additional observations from a re-analysis of the deposited data

How the results depend on the processing

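None of the 5 genes and none of the 96 partner genes was called in limma in any of 15 other settings: 3 scalings, 2 priors, array weights, 2 row filters, the replicate block and leaving out each array. Nrxn2 and Nlgn3 kept differences above 0 in all of them, from 0.02 to 0.15 and from 0.06 to 0.18. Quantile normalization gave -0.0264 for Nlgn1, -0.0206 for Nlgn2 and -0.0177 for Nrxn3, and cyclic loess gave -0.0280, -0.0297 and -0.0341; the cause was not tested. When 1 array was left out, Nlgn1 ranged from -0.0526 to 0.0541, with values below 0 without ethanol array 3 (-0.0214) and without saline array 2 (-0.0526). Nlgn2 ranged from 0.01 to 0.09 and Nrxn3 from 0.01 to 0.10. With the replicate number as a block the difference of Nlgn3 was 0.13 ± 0.10 (SE, adjusted p = 0.906 in limma) and the block changed no call; deviations of same-numbered arrays from their group means correlated across rows at only 0.101, -0.0564 and 0.038, so the numbers were not taken as pairs. The mean of both Nrxn2 rows gave 0.06. Among all rows there were 0 to 1 calls with 1 array left out, the 1 without saline array 3, and 0 in the other settings. The precision is limited by the 3 arrays of each group.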
